A study of Mus musculus with 5 samples.

Results

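The 7 genes described here carry the machinery of MHC class II antigen presentation: Cd74, H2-Aa, H2-Ab1, H2-Eb1, H2-DMa, H2-DMb1 and Ciita. They were chosen by symbol, as 7 of the 32285 genes counted in single-nucleus RNA-seq (snRNA-seq) of mouse brain, and all 7 were found once in the gene table of every library. The questions were how their transcripts were spread over the cell classes of the sorted nuclei, and whether they differed between microglia that carried an activated form of cGAS and control microglia. In microglia of the R241E mice, Cd74, H2-Ab1 and H2-DMa rose, by 3.84-fold, 4.15-fold and 1.82-fold. The size of the Cd74 difference depended on a single control nucleus, and the calls of Cd74 and H2-Ab1 were lost in 4 of the 5 fits that left out 1 library, that of H2-DMa in 1 of them.

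There were 5 libraries, each from 1 mouse. Of these, 2 (R241E) came from mice heterozygous for the R241E allele of Cgas, an exon that Cre recombinase turns around so that the nucleosome-binding mutant of cGAS is made, together with the Tmem119-creERT2 driver, which by the study's account works mostly in microglia and in macrophages of the brain. The other 3 (WT) came from mice with the same driver and, by their titles, wild-type Cgas, although a passage of the study's results names heterozygous controls. The mice were young adults, tamoxifen was used to switch on the driver, the tissue is labelled hippocampus while the extraction protocol names brain, and nuclei lacking NeuN and Olig2 were sorted. A text on H151 and DMSO in aged mice accompanies each sample but assigns neither, so it was not used.

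MHC class II molecules are pairs of an α and a β chain that show peptides from engulfed proteins to CD4+ T cells. New pairs are held by the invariant chain, encoded by Cd74, until its last fragment is exchanged for a peptide with the help of the H2-DM heterodimer, encoded by H2-DMa and H2-DMb1. Ciita encodes the transactivator that joins the proteins bound at the X and Y boxes of class II promoters, and interferon gamma is its best known inducer outside dendritic cells and B cells. Resting microglia are known for low class II expression, whereas dendritic cells and B cells express it constitutively.

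In assembly GRCm38.p6, H2-DMa (chr17:34119693-34139101), H2-DMb1 (chr17:34153191-34160229), H2-Ab1 (chr17:34263227-34269418), H2-Aa (chr17:34282744-34287823) and H2-Eb1 (chr17:34305867-34316674) lay within 196982 base pairs of the mouse major histocompatibility complex. The RefSeq promoter table held windows of 250 bases before to 50 bases after the start for 4 of the 7 genes, H2-Aa, H2-Eb1, H2-DMa and H2-DMb1. The upstream stretches of 3 of them, from 130 to 11 bases before the start, are shown because they carry the boxes at which the class II activator complex assembles, with the motif letters in capitals and each read along the gene's own strand (H2-Aa on the minus strand at chr17:34287834-34287953, H2-Eb1 on the plus strand at chr17:34305737-34305856 and H2-DMb1 on the plus strand at chr17:34153061-34153180).
H2-Aa: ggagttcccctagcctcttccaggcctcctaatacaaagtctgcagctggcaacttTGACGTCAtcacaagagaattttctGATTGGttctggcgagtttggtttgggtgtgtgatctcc
H2-Eb1: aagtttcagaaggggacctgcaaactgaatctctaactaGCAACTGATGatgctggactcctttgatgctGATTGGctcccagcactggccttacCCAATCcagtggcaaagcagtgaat
H2-DMb1: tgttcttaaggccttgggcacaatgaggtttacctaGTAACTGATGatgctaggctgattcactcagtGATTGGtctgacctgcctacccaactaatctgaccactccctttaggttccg

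Both strands were searched. The X box stood 91 bases before the start of H2-Eb1 and 94 before that of H2-DMb1, and 2.97% of all 32851 RefSeq windows held one. The Y box letters GATTGG, on either strand, stood 49 bases before H2-Aa, 60 and 35 before H2-Eb1 and 62 before H2-DMb1. One of the windows of H2-DMa also held them, 199 bases before its start, and 16.1% of all windows did. The X2 box TGACGTCA, with a share of 1.79% of windows, was found 74 bases before H2-Aa. None of the 4 genes' windows held the interferon response element, GAAA repeated after 2 bases (3.44% of windows), or the gamma-activated site TTCNNNGAA (8.3% of windows). These are matches of letters, not measured binding sites.

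Of the other 2 genes outside this region, Cd74 lay on chromosome 18 (60803849 to 60812652) and Ciita on chromosome 16 (10480014 to 10531064).

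The libraries held 4183709 to 10130667 UMIs (unique molecular identifiers, one per captured RNA molecule), and 9505 of 9748 nuclei were kept, with a median of 2126 to 3364 UMIs per nucleus. R241E replicate 1 was the deepest and R241E replicate 2 the shallowest in total. Pairs of libraries shared 0 to 2 cell barcodes. Cell classes were named from marker genes that include no class II gene, and the 7 genes were left out of clustering, so that a class is short for nuclei that resemble it (microglia-like and so on). Microglia numbered 5381 nuclei and border-associated macrophages, the macrophages of meninges and vessels, 413. Dendritic cells numbered 27 (4 to 7 per library), monocytes 42, neutrophils 42 and B cells 21, the last with no nucleus in WT replicate 1. The targeted gene, Cgas, was measured in microglia at 83.2 and 87.9 CPM (UMIs of a gene scaled to a fixed total of UMIs in the class) in R241E against 66.7, 72.4 and 74.7 CPM in WT (log2 fold change 0.24, SE 0.12, edgeR adjusted p = 0.285). Counts of a gene do not tell the mutant from the wild-type transcript.

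With all nuclei, each of the 7 transcripts was highest in dendritic cells in every library, although the class was chosen without them. Summed over the class, Cd74 stood there at 32851 and 21128 CPM in R241E against 30643, 50185 and 41715 CPM in WT. H2-Aa stood at 12012 and 7909 CPM in R241E against 13034, 19084 and 14564 CPM in WT. Over the 5 libraries H2-Ab1 was at 6284 to 12723 CPM and H2-Eb1 at 6230 to 14136 CPM. The peptide editor H2-DMa was at 488 to 1414 CPM, its partner H2-DMb1 at 163 to 1564 CPM and Ciita at 163 to 719 CPM. For H2-Aa and Ciita every WT value exceeded both R241E values, as was so for 9.31% of the 537 genes with at least 20 UMIs in the class, and the genotypes overlapped for the other 5 genes. R241E replicate 2 had the lowest value for all 7 genes, and with 4 to 7 nuclei in each sum no test between genotypes was run. The lead of the sparse genes was small in places: H2-DMb1 in R241E replicate 2 had 3 UMIs here and 2 in neutrophils (135 CPM). Without the nucleus richest in the 7 genes of each library and class, H2-DMb1 was at 0 CPM in WT replicate 3. Ciita was then at 0 CPM in R241E replicate 2, and in WT replicate 2 at 321 CPM, below the 552 CPM of B cells. The name of the dendritic class had a narrow lead, with a mean log2 fold of 4.911 for dendritic and 4.132 for macrophage markers. With the upper limits on genes and UMIs lifted, a cluster of 39 nuclei led by H2-Ab1 was named border-associated macrophages (5.125 against 4.576 for dendritic markers).

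For Cd74, B cells came next, at 15481 to 20059 CPM in the 4 libraries that held them, with only 1 nucleus in R241E replicate 1. This order did not hold for every gene. In WT replicate 2, for example, H2-Ab1 was at 559 CPM in B cells and 3386 CPM in monocytes. Monocytes were split: Cd74 was at 14682 and 13219 CPM in WT replicates 1 and 2, but at 321 CPM in WT replicate 3 and at 2998 and 537 CPM in R241E. The monocyte sums rest on 4 to 14 nuclei, and the order of the libraries did not follow the genotype. Single nuclei made most of this split, as was seen with the nucleus richest in class II genes left out of each library. Cd74 in monocytes then fell to 1362 and 1015 CPM in WT replicates 1 and 2. It stood at 182 CPM in WT replicate 3 and at 424 and 355 CPM in R241E. H2-Ab1 of WT replicate 2 was then at 185 CPM in monocytes and 0 CPM in B cells. T or NK cells, a class that should hold little class II, had Cd74 at 0 to 58.3 CPM.

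Outside the immune classes, fibroblasts held Cd74 at 51.1 and 64.8 CPM in R241E against 74.6, 55.6 and 104 CPM in WT. Neurons had 19.2 and 3.2 CPM in R241E against 1.6, 4.07 and 2.74 CPM in WT, and oligodendrocytes 4.53 to 10.3 CPM over all libraries. These classes are not known for class II expression, and their values serve as the background for those of microglia. The fibroblast values of Cd74 spanned those of R241E microglia given further on, whereas the neuronal and oligodendrocyte values lay below them. In the neurons of R241E replicate 1, a single nucleus held 10 of the 17 UMIs of Cd74, H2-Aa, H2-Ab1 and H2-Eb1.

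**Figure D1:**
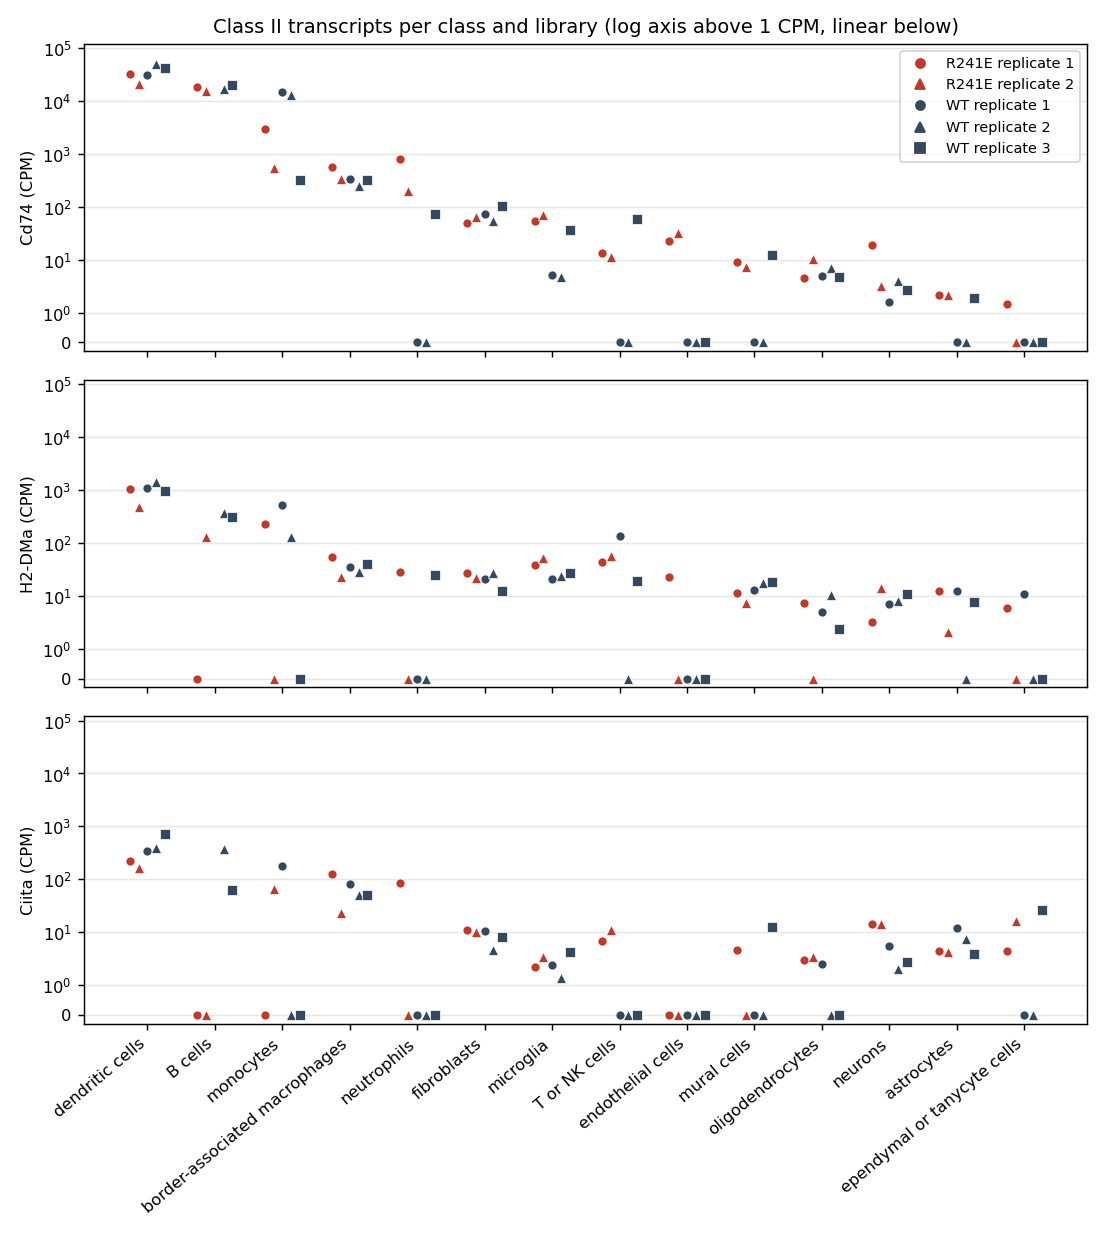
Level of Cd74, H2-DMa and Ciita (CPM of the class sum, on an axis that is logarithmic above 1 CPM and linear below) in the cell classes, with 1 point per library, R241E in red and WT in blue. Dendritic cells lie at the top for Cd74 (21128 to 50185 CPM) and microglia lie between 4.84 and 70.6 CPM, whereas for H2-DMa the points of microglia and border-associated macrophages overlap.

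The share of all transcripts that a class held differed between the genes. The 27 dendritic cells held 54.4% of the 4641 Cd74 UMIs of the series (45.7% to 72.9% per library), and 65.9%, 65.6% and 64.4% of those of H2-Aa, H2-Ab1 and H2-Eb1. Microglia, 56.6% of the nuclei, held 9.39% of the Cd74 UMIs. For the peptide editors the shares were the other way round: microglia held 61% of the 734 H2-DMa UMIs (51.5% to 70.7% per library) and 67.1% of the 554 H2-DMb1 UMIs, and dendritic cells 9.95% and 10.5%. Ciita was sparse, with 236 UMIs in all, of which border-associated macrophages held 37.3%, microglia 16.1% and neurons 11.4%.

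Border-associated macrophages had more Cd74 and classical chains than microglia in every library. These comparisons between classes are descriptions, since the classes were cut from the same nuclei. The level of Cd74 in macrophages was 10.3 and 4.83 times that in microglia in R241E, and 64.3, 51.6 and 8.79 times in WT. H2-Aa was 8.32 to 35.2 times, H2-Ab1 6.57 to 79.2 times and H2-Eb1 6.4 to 98.6 times the microglial level over the 5 libraries. The lowest WT ratios of Cd74, H2-Aa and H2-Eb1 are those of WT replicate 3, where 1 microglial nucleus held most of the UMIs. With the nucleus richest in the 7 genes left out of each class and library, Cd74 in WT replicate 3 was at 245 CPM in macrophages and 8.67 CPM in microglia. The transactivator Ciita was 6.57 to 58.5 times higher in macrophages, on 88 UMIs in macrophages and 38 in microglia.

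The peptide editors did not follow this split. H2-DMa in macrophages was 1.4 and 0.427 times the microglial level in R241E and 1.63, 1.19 and 1.48 times in WT. H2-DMb1 stood at 2.76 and 0.657 times in R241E and at 2.15, 2.87 and 2.71 times in WT. In R241E replicate 2 both editors were lower in macrophages than in microglia, with 3 UMIs of each in its 52 macrophages. H2-DMb1 has a close paralogue, H2-DMb2, and reads shared by the pair are uncertain.

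In microglia the invariant chain transcript, Cd74, was measured at 54.9 and 70.6 CPM in R241E against 5.26, 4.84 and 37.4 CPM in WT. Both R241E libraries lay above all WT libraries, but WT replicate 3 lay closer to them than to the other two WT libraries. The log2 fold change was 1.94 (SE 0.50, edgeR quasi-likelihood test, adjusted p = 0.0227). A class sum does not tell more nuclei with a transcript from more of it per nucleus, so shares of nuclei are given further on.

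Of the classical chains, H2-Ab1, the β chain of the I-A molecule, was at 7.85 and 13.8 CPM in R241E against 1.62, 0.922 and 4.78 CPM in WT. The groups did not overlap, and it rose by 2.05 on the log2 scale (SE 0.52, edgeR adjusted p = 0.0197). Its partner H2-Aa, the α chain, was at 10 and 10.4 CPM in R241E against 3.23, 1.61 and 10.2 CPM in WT, where WT replicate 3 lay between the R241E libraries. The log2 difference of 1.04 (SE 0.52) did not pass the test (edgeR adjusted p = 0.281). H2-Eb1, the β chain of the I-E molecule, was at 7.22 and 8.31 CPM in R241E against 0.809, 0.692 and 11.7 CPM in WT. The highest value was that of WT replicate 3, and the log2 difference of 0.78 (SE 0.75) did not pass (edgeR adjusted p = 0.64).

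The peptide editor H2-DMa was at 38.9 and 53.3 CPM in R241E against 21.4, 24 and 26.9 CPM in WT. The groups were apart, WT replicate 3 lay with the other WT libraries, and the gene rose by 0.86 on the log2 scale (SE 0.18, edgeR adjusted p = 0.00536). H2-DMb1 was at 30.5 and 34.6 CPM in R241E against 19, 19.8 and 27.5 CPM in WT. These groups were apart as well, and the log2 difference of 0.52 (SE 0.20) did not pass (edgeR adjusted p = 0.133).

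Ciita was sparse in microglia, at 2.2 and 3.46 CPM in R241E against 2.43, 1.38 and 4.18 CPM in WT, from 38 UMIs in all. The groups overlapped (log2 difference 0.01, SE 0.60, edgeR adjusted p = 0.999), and the 95% interval of the difference ran from -1.18 to 1.19, so a change of up to about that size was not detectable at this depth. In the same libraries neurons had Ciita at 14.4 and 14.4 CPM in R241E against 5.6, 2.04 and 2.74 CPM in WT. The level of the transactivator transcript in microglia was lower than that in neurons in 4 of 5 libraries.

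Of the 7 genes, 3 were called higher and 0 lower in R241E microglia, where 5.93% of the 12731 genes tested were called higher and 3.21% lower. The median log2 fold change of the 7 genes was 0.86, beside -0.01 over all genes tested. The R241E libraries lay above all WT libraries for Cd74, H2-Ab1, H2-DMa and H2-DMb1, as they did for 20.3% of all genes.

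**Figure D2:**
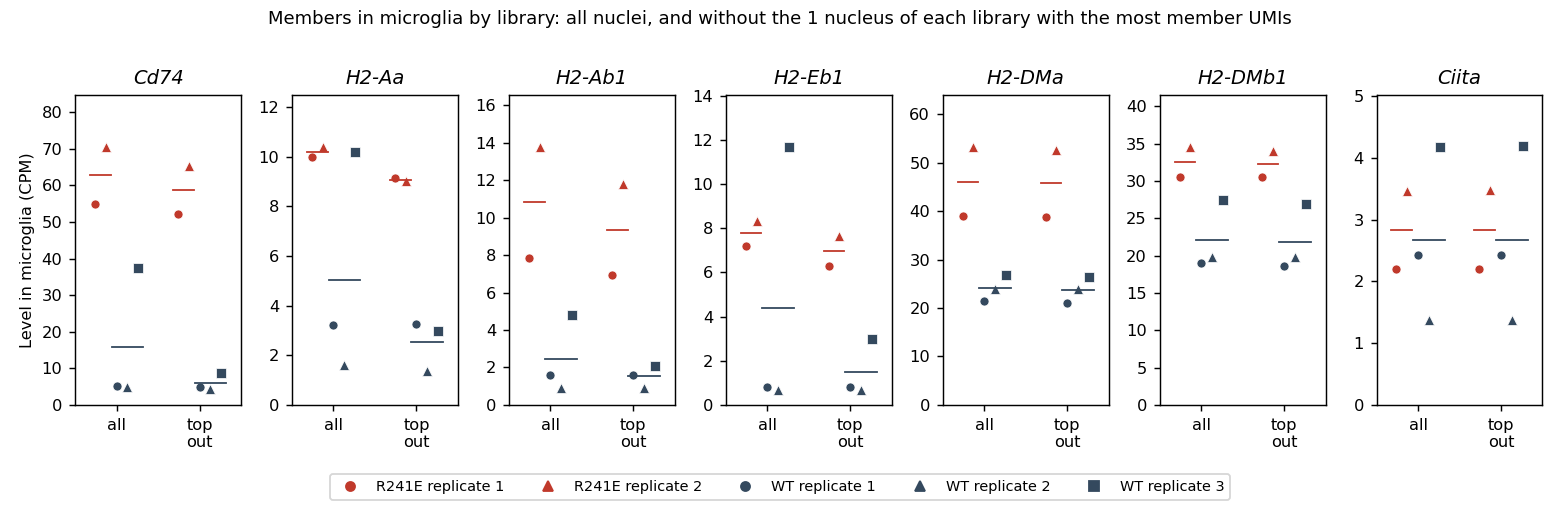
Level of each of the 7 genes in the microglia sum of each library (CPM; points are libraries and lines are group means), with all nuclei and without the single nucleus of each library that held the most UMIs of the 7 genes (top out). WT replicate 3 falls from 37.4 to 8.67 CPM for Cd74 when that nucleus is left out, and the R241E libraries stand at 52.2 and 65.2 CPM.

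The WT replicate 3 values for Cd74 and the classical chains came mostly from 1 nucleus. This nucleus, among 1455 microglia of that library, had 1222 UMIs, of which 12.9% were Cd74 (96 UMIs), H2-Eb1 (29), H2-Aa (24) and H2-Ab1 (9). It held 76.8% of the Cd74 UMIs of the class in that library, and 2 UMIs each of H2-DMa and H2-DMb1. It held 3 UMIs of microglial markers, 2 of monocyte markers and 0 of macrophage, dendritic or B cell markers. When the class II genes were allowed into the clustering it fell among the dendritic cells.

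Without the nucleus of each library with the most UMIs of the 7 genes, an alternative chosen after seeing the data, the microglial Cd74 level was 52.2 and 65.2 CPM in R241E against 4.86, 4.38 and 8.67 CPM in WT. The WT libraries then lay together, the log2 fold change was 3.25 (edgeR adjusted p = 2.08e-07), and 5 of the 7 genes were called higher. The nuclei left out were picked by the genes tested, so these calls are given as a description. H2-Aa (log2 fold change 1.89, edgeR adjusted p = 0.00753) and H2-Eb1 (2.14, edgeR adjusted p = 0.0203) were added to Cd74, H2-Ab1 and H2-DMa. H2-DMb1 (0.53, edgeR adjusted p = 0.12) and Ciita were not called.

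The Cd74 call was also lost in other fits of all nuclei. With a robust prior in the edgeR fit, the Cd74 difference of 1.94 had an SE of 1.02 and an adjusted p of 0.439, and the DESeq2 Wald test gave an adjusted p of 0.502. H2-Ab1 and H2-DMa passed both. With both the robust prior and that nucleus left out of each library, the same 5 genes were called as with the nucleus left out alone.

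Leaving out single libraries moved the calls in either direction. Without either R241E library the other stands alone, and it is then assumed to vary as the WT libraries do. Without R241E replicate 1, WT replicate 1 or WT replicate 2, H2-DMa alone was called, with edgeR adjusted p values of 0.0104, 0.0234 and 0.0218. Without R241E replicate 2 none of the 7 was called by edgeR, with 3 of them, H2-DMa, Cd74 and H2-Ab1, at an unadjusted p under 0.05 (H2-DMa at an edgeR adjusted p of 0.075), and no other tool was run without that library. Without WT replicate 3, 6 genes were tested and all 6 were called higher, among them Cd74 (log2 fold change 3.58, edgeR adjusted p = 1.87e-08). Over all genes, 1164 were called with all libraries, 511 to 856 without R241E replicate 1, R241E replicate 2, WT replicate 1 or WT replicate 2, and 1550 without WT replicate 3. Over all alternatives the adjusted p of Cd74 ran from 2.12e-47 to 0.502 and that of H2-DMa from 4.11e-06 to 0.075.

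**Figure D3:**
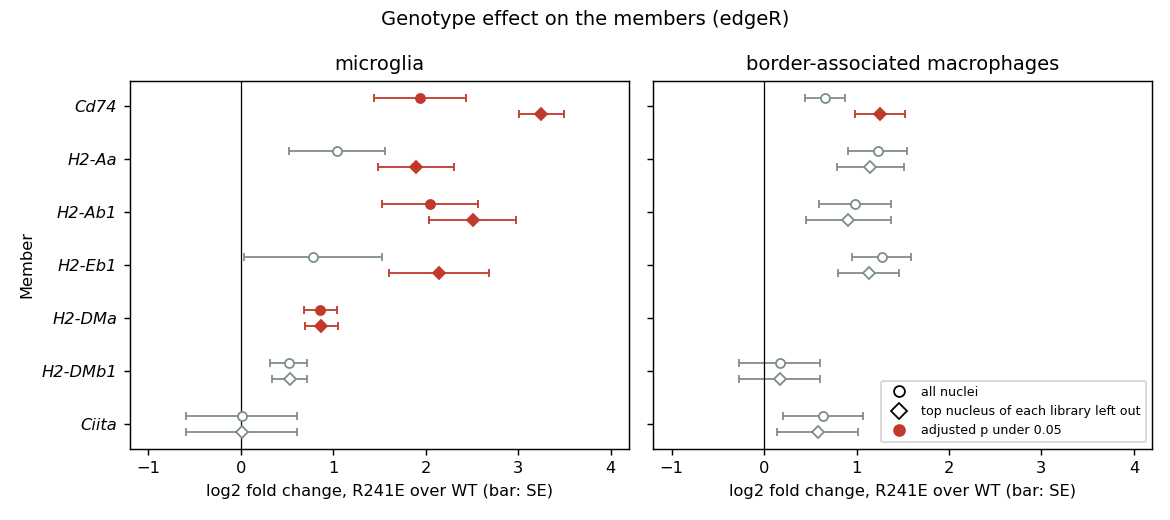
Log2 fold change of R241E over WT for each gene, with its SE as the bar, in microglia (left panel) and border-associated macrophages (right panel). Circles use all nuclei, diamonds leave out the top nucleus of each library, and filled red points had an edgeR adjusted p under 0.05. In microglia the estimate for Cd74 moves from 1.94 to 3.25 when the top nucleus is left out, and H2-DMa stays at 0.86 and 0.87.

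Shares of nuclei gave a measure that 1 nucleus cannot carry. Each nucleus was thinned to 1000 UMIs, which left out 9 to 65 microglia per library. A Cd74 UMI was then seen in 4.11% (exact 95% interval from 2.96 to 5.53) and 3.82% (from 2.31 to 5.89) of the microglia in R241E, and in 0.554% (0.18 to 1.29), 0.829% (0.429 to 1.44) and 1.15% (0.659 to 1.86) of WT microglia. The intervals, which cover counting error only, did not overlap between the genotypes. R241E averaged 3.96% ± 0.207 (SD, n = 2) and WT 0.845% ± 0.299 (SD, n = 3), which is 3.12 percentage points apart. An exact permutation test gave p = 0.1, below which 2 against 3 mice cannot go (0.14 adjusted over the 7 genes). Before thinning, the median nucleus had 2061 to 3044 UMIs in microglia and 2612 to 5303 UMIs in neurons. Among neurons at 1000 UMIs, 1 of 112 (exact 95% interval 0.0226% to 4.87%) and 1 of 159 nuclei (0.0159% to 3.45%) in R241E had a Cd74 UMI. In WT it was 0 of 268, 0 of 105 and 0 of 100 neurons, which allows shares of up to 1.12%, 2.86% and 3%. The R241E microglial shares lay above both R241E neuronal shares, but inside the wide neuronal interval of replicate 1. Fibroblasts, with a median of 2364 to 4093 UMIs before thinning, had a Cd74 UMI in 4.94% and 2.52% of nuclei in R241E and in 3.33%, 1.75% and 5.62% in WT, from 1 to 8 nuclei each. The R241E microglial shares thus lay among the fibroblast shares and the WT microglial shares below all of them, while the fibroblast means by genotype of 3.73% for R241E and 3.57% for WT had overlapping libraries (exact permutation p = 0.9).

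H2-DMa was seen in 4.71% ± 0.149 (SD, n = 2) of R241E and 2.33% ± 0.0238 (SD, n = 3) of WT microglia at this depth, 2.39 percentage points apart. H2-Aa, H2-Ab1 and H2-Eb1 were each seen in 0.853% to 1% of R241E microglia on average, and in 0.204% to 0.241% of WT microglia. For these 4 genes the libraries of the genotypes did not overlap, with an exact permutation p of 0.1 each. How many of all genes were apart in this measure was not counted, so the 4 have no background share. H2-DMb1 was seen in 2.91% and 2.22% on average (exact permutation p = 0.3) and Ciita in 0.251% and 0.266% (exact permutation p = 1), with overlapping libraries. At 500 UMIs a nucleus the split was different: H2-DMa overlapped (2.47% and 1.39% on average, exact permutation p = 0.2), H2-Eb1 had an exact permutation p of 0.2, and H2-DMb1 did not overlap (2.09% and 1.11%, exact permutation p = 0.1). H2-DMb1 was also apart without thinning (8.24% and 5.32%, exact permutation p = 0.1). Without thinning, the mean Cd74 shares were 8.83% in R241E and 1.47% in WT.

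A larger share of microglia held the transcripts in R241E than in WT. At least 1 UMI of Cd74, H2-Aa, H2-Ab1 or H2-Eb1 was found in 120 of 1007 (11.9%) and 54 of 522 (10.3%) R241E microglia, and in 2.7%, 2.04% and 3.37% of WT microglia. The same was so of 6.96% and 3.07% of R241E neurons and of 2.95%, 1.83% and 2.52% of WT neurons, so the WT microglial shares are near those of neurons. These shares are not thinned. At least 2 of these 4 genes were found in 27 (2.68%) and 15 (2.87%) R241E microglia, and in 2, 1 and 3 WT microglia (0.216%, 0.068% and 0.206%). The nucleus with the most of these UMIs held 7.06% and 9.4% of them in the R241E libraries, but 73.8% in WT replicate 3. The top 10 nuclei held 33.7% and 53.7% of them in R241E, and 44.4%, 42.9% and 81.8% in WT. Nuclei with 5 or more such UMIs numbered 13 and 9 in R241E and 0, 0 and 1 in WT.

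Markers of other cell types moved with the genotype within microglia. The summed markers of dendritic cells (7 of 8 detected, Cd209a at 0) were at 26.3 to 45.2 CPM in R241E against 18.6 to 23.3 CPM in WT, with Flt3 and Itgax called higher. Those of monocytes (8 of 8 detected) were at 24.9 to 32 and 14.3 to 16.6 CPM, with Plac8 called higher. B cell markers (7 of 8 detected) ran from 6.59 to 7.62 and from 4.45 to 6.87 CPM, and T or NK cell markers (11 of 11 detected) from 7.62 to 19.1 and from 2.08 to 4.04 CPM. The macrophage list (10 of 10 detected) went the other way, at 106 to 156 CPM in R241E against 231 to 260 CPM in WT, with Mrc1, Stab1 and Dab2 called lower. In microglia without any UMI of the other myeloid or B cell markers, Cd74 (log2 fold change 3.00), H2-Ab1 (2.63) and H2-DMa (0.88) were called higher by edgeR. That filter also removed the WT replicate 3 nucleus described above, which had 2 monocyte marker UMIs, so the values stand beside the 3.25 for Cd74 without it. H2-Eb1 and Ciita were too sparse to be tested there.

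The class II transcripts were also set beside the interferon response of each nucleus, counted as UMIs of the study's list of 28 interferon-associated genes among 1000 UMIs drawn from the nucleus. In R241E replicate 1, the sum of Cd74, H2-Aa, H2-Ab1 and H2-Eb1 was 81.2 CPM in microglia with 0 or 1 interferon UMI, 82.9 CPM in those with 2 to 4 and 73.8 CPM in those with 5 or more. In R241E replicate 2 the same bins stood at 88.9, 44.8 and 234 CPM. Without its top nucleus the last of these was 186 CPM. The R241E libraries thus gave no common order over the bins. WT microglia with 0 or 1 interferon UMI stood at 9.91, 7.24 and 12.9 CPM, all below the R241E value in the same bin. WT microglia with 2 to 4 stood at 18, 14.2 and 539 CPM. Without the top nuclei, the lowest WT bins were at 9.47, 7.24 and 12.9 CPM and those of 2 to 4 at 18, 7.12 and 49.7 CPM. The WT bins of 5 or more held only 5 to 9 nuclei and stood at 0 CPM. Restricted to nuclei with at most 1 interferon UMI, Cd74 (log2 fold change 3.41), H2-Aa (2.12), H2-Ab1 (2.97) and H2-DMa (0.90) were called higher by edgeR. The restriction also left out the WT replicate 3 nucleus described above, and among all microglia without the top nuclei Cd74 was at 3.25 and H2-Aa at 1.89.

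**Figure D4:**
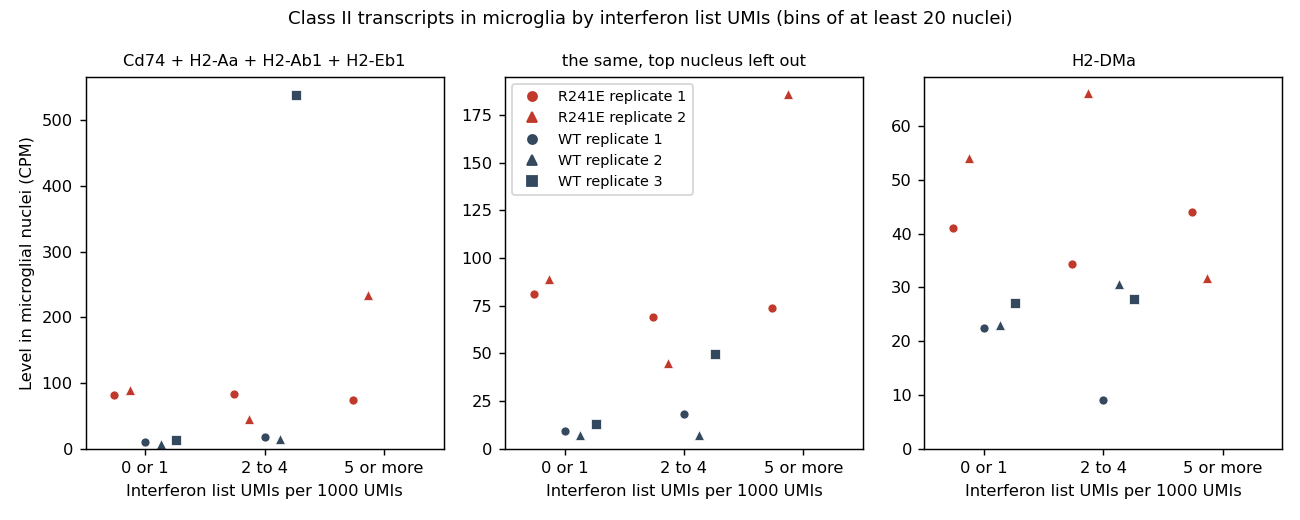
Summed level of Cd74, H2-Aa, H2-Ab1 and H2-Eb1 (CPM, left panel, and with the top nucleus of each library left out, middle panel) and level of H2-DMa (right panel) in microglia binned by their interferon list UMIs among 1000 UMIs (x axis), 1 point per library, with bins of fewer than 20 nuclei left out. In the left panel the R241E libraries stand at 81.2 and 88.9 CPM in the lowest bin, where the WT libraries stand at 7.24 to 12.9 CPM, and the WT replicate 3 bin of 2 to 4 UMIs (539 CPM) holds the nucleus that carries most of its class II UMIs.

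Microglia fell into 6 clusters, and the genotypes filled different ones. Most R241E microglia lay in clusters 1 and 8, and most WT microglia in clusters 2 and 17. Within cluster 17 the 4-gene sum was 71.5 and 55.7 CPM in R241E, from only 7 and 6 UMIs in 43 and 49 nuclei. In WT it was 9.44, 6.8 and 19.4 CPM, from 5, 10 and 22 UMIs. Such a UMI was found in 16.3% and 4.08% of these R241E nuclei and in 1.9%, 1.65% and 3.63% of the WT nuclei. Cluster 8 was led by Siglech and the complement genes C1qc and C1qb. Without the single nucleus described above for each library, its sum was 158 and 76.9 CPM in R241E. In WT it was then 27.1, 6.91 and 14.2 CPM, from 2 UMIs each in replicates 1 and 2. With that nucleus, R241E replicate 1 stood at 179 CPM and WT replicate 3 at 238 CPM. Cluster 13, led by interferon-induced genes such as Ifi204, Ifi207 and Cxcl10, held 95 and 38 R241E nuclei at 91.2 and 430 CPM, and 8 WT nuclei in all.

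In border-associated macrophages Cd74 was measured at 568 and 341 CPM in R241E against 338, 250 and 328 CPM in WT. R241E replicate 1 stood apart, while R241E replicate 2 lay just above WT replicate 1, and the log2 difference of 0.66 (SE 0.22) did not pass the test (edgeR adjusted p = 0.289). H2-Aa was at 203 and 114 CPM in R241E against 75.7, 56.8 and 84.6 CPM in WT, a log2 difference of 1.23 (SE 0.32, edgeR adjusted p = 0.0788). H2-Eb1 was at 203 and 114 CPM in R241E against 69.9, 68.2 and 74.6 CPM in WT, a difference of 1.27 (SE 0.32, edgeR adjusted p = 0.0641). The groups were apart for Cd74 and both of these chains, as they were for 11.2% of all genes tested in macrophages. H2-Ab1 overlapped, at 178 and 91 CPM against 128, 28.4 and 69.6 CPM (0.98, SE 0.39, edgeR adjusted p = 0.467).

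The editors and the transactivator of macrophages overlapped between the genotypes. H2-DMb1 was at 84 and 22.8 CPM in R241E against 40.8, 56.8 and 74.6 CPM in WT, and Ciita at 129 and 22.8 CPM against 81.5, 51.2 and 49.7 CPM. H2-DMa, at 54.4 and 22.8 CPM against 34.9, 28.4 and 39.8 CPM, had too few UMIs to be tested. Of the 6 genes tested by edgeR, 0 were called, while 4, Cd74, H2-Aa, H2-Ab1 and H2-Eb1, had an unadjusted p under 0.05. DESeq2 and limma-voom also called 0, and 0.515% of the 4274 genes tested were called higher and 0.0936% lower.

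Single libraries and nuclei weighed on these values too. Without R241E replicate 2, Cd74 (log2 fold change 0.91), H2-Aa (1.48) and H2-Eb1 (1.52) were called, with edgeR adjusted p values of 0.0364, 0.00633 and 0.00475, from 1 R241E library that is assumed to vary as the WT libraries do. With the top nucleus of each library left out Cd74 was called (1.25, edgeR adjusted p = 0.0322). Those nuclei were picked by the genes tested, and without them Cd74 went from 250 to 103 CPM in WT replicate 2 but only from 568 to 550 CPM in R241E replicate 1. With the robust prior H2-Eb1 was (edgeR adjusted p = 0.0407). At 1000 UMIs a nucleus, Cd74 was seen in 29.9% and 16.3% of R241E macrophages and in 11.3%, 13% and 15.2% of WT macrophages (exact permutation p = 0.1, 0.7 adjusted over the 7 genes).

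Class II transcripts were uneven among the macrophages. Over all libraries, a single cluster of the 5 second-level clusters held 60.9% of the class's UMIs of Cd74 and the classical chains. It had 86 nuclei and was led by Negr1, Dach1 and Klra2. The 4-gene sum stood there at 2454 and 1057 CPM in R241E against 2164, 2827 and 2274 CPM in WT. Ciita stood there at 297 CPM over all libraries. By library, this cluster's share of the 4-gene UMIs was 56.4% and 23% in R241E and 66.7%, 98.6% and 79.5% in WT. In R241E replicate 2, 64.4% of these UMIs lay in 6 nuclei of another cluster, at 3861 CPM. In the largest cluster, of 150 nuclei with Cd209f among its leading genes, the sum was 83.9 CPM and Ciita 7.4 CPM over all libraries. The largest cluster held 20% and 19.2% of the R241E macrophages and 53.2%, 59.4% and 41.1% of the WT macrophages. A cluster of 82 nuclei, with Ccl8 among its leading genes, held 30.4% and 42.3% of R241E and 7.25% to 11.3% of WT macrophages. Its 4-gene sum was 877 and 172 CPM in R241E (113 and 11 UMIs) against 85.1, 0 and 0 CPM in WT. The WT values rest on 2, 0 and 0 UMIs in 7, 5 and 7 nuclei, too few to show absence. The part that the different cluster make-up had in the class sums was not tested. Summed markers of dendritic cells (8 of 8 detected) were at 638 and 789 CPM in R241E against 705, 466 and 602 CPM in WT over the whole class, and those of monocytes (5 of 8 detected, Chil3, Plac8 and F10 at 0) at 227 and 45.5 CPM against 285, 102 and 199 CPM, with no marker called.

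**Figure D5:**
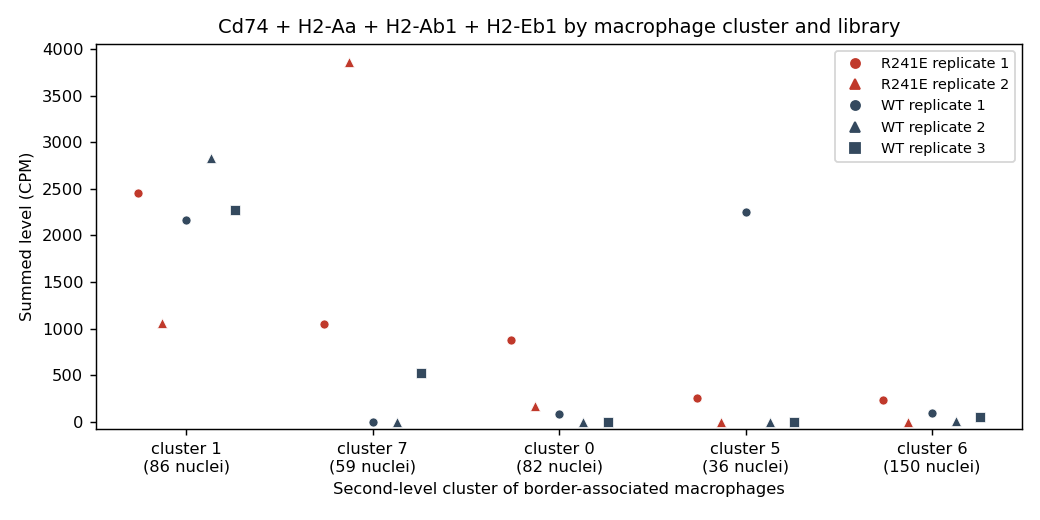
Summed level of Cd74, H2-Aa, H2-Ab1 and H2-Eb1 (CPM) in the 5 second-level clusters of border-associated macrophages, 1 point per library. The cluster led by Negr1 and Dach1 has all 5 libraries between 1057 and 2827 CPM, whereas each of the other clusters includes a library at 0 CPM. The points at 0 CPM rest on 4 to 14 nuclei each.

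The genotype effect was compared between the classes with a term for their difference in one edgeR fit with the library as a block. For Cd74 the effect in macrophages was smaller than that in microglia by 1.43 on the log2 scale (term -1.43, SE 0.28, edgeR adjusted p = 0.000132), and it was the only one of the 7 genes called, where 0.21% of the 10928 genes were called higher and 0.695% lower. The term rests on the same microglial sums, and the call was lost with the robust prior (edgeR adjusted p = 0.956), with limma-voom (adjusted p = 0.272), without the library block (edgeR adjusted p = 0.576), and without R241E replicate 2, WT replicate 1 or WT replicate 2. With the top nucleus of each library and class left out, again picked by the genes tested, the term was -1.92 (edgeR adjusted p = 3.04e-06). For the other 6 genes it ran from -0.96 for H2-Ab1 to 0.53 for Ciita, with SEs from 0.49 to 0.86 and none was called, with 0 of them at an unadjusted p under 0.05.

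Of the other classes, fibroblasts, mural cells, neurons and oligodendrocytes were fitted, each with 20 or more nuclei in each library. Astrocytes, with 59 to 169 nuclei per library, met the same limit but were left out of the fits. In the classes fitted, only Cd74 in fibroblasts had enough UMIs to be tested. Its log2 difference was -0.43 (SE 0.34, edgeR adjusted p = 0.853), where 0.0177% of genes were called higher and 0.053% lower. With the top nucleus of each library left out it was 0.33.

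The genes around the 7 in the pathway were taken from lists chosen by role. Of 5 other class II genes, 4 were in the files and 3 could be tested in microglia. H2-Oa, which encodes a chain of the H2-O molecule that restrains H2-DM, rose (13.5 and 11.8 CPM in R241E, 1.62, 2.31 and 4.48 CPM in WT, log2 fold change 2.14, edgeR adjusted p = 0.00157). Its partner H2-Ob, at 34.2 and 28.4 CPM against 29.5, 33.2 and 38.3 CPM, was not called.

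Of 7 genes listed for antigen processing, not all of them proteases, 5 rose and 0 fell in R241E microglia by edgeR. This stands beside 5.93% higher over all genes, and the median log2 fold change of the 7 was 0.71. DESeq2 called 3 of the 7 and limma-voom 6. Ctss, the protease of the last steps of invariant chain removal, was at 1364 and 1620 CPM in R241E against 552, 671 and 757 CPM in WT (log2 fold change 1.16, edgeR adjusted p = 7.74e-06). The protease genes Ctsb (0.76) and Ctsl (0.71) and Ifi30, a lysosomal reductase gene (1.29), rose as well. In macrophages 0 of 6 tested genes of this list were called by edgeR, DESeq2 or limma-voom, and 0 had an unadjusted p under 0.05.

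Of the 7 genes for the complex that binds the X and Y boxes, 0 were called by edgeR, DESeq2 or limma-voom in microglia (median log2 fold change -0.07), and 2, Rfxap and Nfyb, had an unadjusted p under 0.05 by edgeR. Rfxap, a subunit of the X box factor, was at 25.7 and 22.8 CPM in R241E against 15.8, 16.6 and 17.3 CPM in WT (log2 difference 0.55, edgeR adjusted p = 0.0995). Nfyb, a subunit of the Y box factor, had a log2 difference of -0.50 (edgeR adjusted p = 0.172).

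Of 9 tested genes on the path from interferon gamma, 3 rose in R241E microglia by edgeR, and DESeq2 and limma-voom also called 3. Among them were Irf1, a transcription factor induced by interferons, with a log2 fold change of 1.33, and Socs1, a feedback inhibitor, with 1.93. The receptor gene Ifngr1 was at 178 to 196 CPM in all libraries. Ifng itself was nearly absent: 1 UMI in microglia and 9 UMIs in T or NK cells, all in R241E replicate 1, and 0 in macrophages.

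Of 7 co-stimulation genes tested, 4 rose in R241E microglia, and DESeq2 and limma-voom also called 4. Cd40, a receptor for the T cell signal CD40L, was at 13.8 and 11.8 CPM in R241E against 0.809, 0.231 and 0.897 CPM in WT (log2 fold change 4.34, edgeR adjusted p = 1.86e-05). Cd274, encoding the inhibitory ligand PD-L1 (1.76), Cd83 (1.24) and Icosl (0.73) rose with it.

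All 9 class I genes rose in R241E microglia by edgeR, with a median log2 fold change of 1.90. DESeq2 called 8 of them and limma-voom 9. Nlrc5, the class I counterpart of Ciita, was at 218 and 210 CPM in R241E against 14.2, 15 and 15.5 CPM in WT (log2 fold change 3.82, edgeR adjusted p = 5.79e-11). H2-D1 (3.25), H2-K1 (3.07) and B2m (2.17), which encode the class I heavy chains and their shared light chain, rose in the same libraries, where Ciita had a log2 difference of 0.01. In macrophages 3 of 6 tested class I genes rose, H2-D1 (1.48), H2-K1 (1.58) and Nlrc5 (1.38), while DESeq2 called 2 and limma-voom 4.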

How the data were processed

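Single-nucleus libraries of 5 mice were made by the authors with 10x Genomics 3′ chemistry. The deposited values are raw UMI counts for each gene in each nucleus. The authors made them with Cell Ranger on mm10. Whether intronic reads and strand entered the counts is not given in the sources used here, so antisense and overlapping transcripts cannot be told apart. Groups and replicate numbers came from the sample titles.

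Kept nuclei had at least 200 and under 4500 genes, under 10000 UMIs, and less than 5% of UMIs from mitochondrial genes, following the study's limits, which left 9505 of 9748, the number the study gives. They were clustered without the 7 genes (scanpy 1.11.5, 3000 variable genes, 30 components, 20 neighbours, Leiden resolution 1, 25 clusters), and 737 immune nuclei that were not microglia were clustered again. Each cluster was named for the marker list with the largest mean log2 fold against the other clusters, which had to reach 2 with 3 markers each detected in 10% of its nuclei. This scoring rule and the second clustering were chosen after seeing the data, and 54 nuclei stayed unnamed. The names are rebuilt from the counts, so a difference from the study may come from that. Scrublet called 40 nuclei, too few for a working caller, so doublets were handled by the upper limits and by an alternative without the 158 highest scores.

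UMIs were summed per class and library, since nuclei of 1 mouse are not replicates. Classes with 20 nuclei in every library, except astrocytes, were tested in edgeR 4.0.16 (R 4.3.3) by its quasi-likelihood test after TMM scaling and filterByExpr. The p values were adjusted by Benjamini-Hochberg over all genes tested, and genes were called at an adjusted p under 0.05. Shares of nuclei were compared at 1000 UMIs per nucleus with two-sided exact permutation tests on the difference of means. Alternatives used DESeq2 1.42.0, limma-voom (limma 3.58.1), DESeq2 size factors, no filter on low counts, a robust prior, a replicate block and left-out libraries, nuclei and limits. The fits were tested on simulated data. Of 200 genes altered there, 41 (20.5%) were recovered in microglia and 25 (12.5%) in border-associated macrophages. For the difference between the classes it was 145 of 200 (72.5%). Unaltered genes that were called numbered 6, 2 and 8. Most altered genes were thus missed within either class, so a gene that was not called may still differ.

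The 7 genes, the role lists and the named genes (up to 4 per list, by the smallest p in microglia, and the same genes in macrophages) were chosen with earlier results of these data known. A sample of 1 mouse is the unit of every test. A few marker and list genes are not reported here.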

Additional observations from a re-analysis of the deposited data

Results flagged for a closer look

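In the main fit, the genotype effect on Cd74 differed between border-associated macrophages and microglia by a test of the difference itself (log2 term -1.43, SE 0.28, edgeR adjusted p = 0.000132). That SE used a spread shared over all genes, not the larger spread of Cd74 itself. The microglial Cd74 level of WT replicate 3 came mostly from 1 nucleus, with 76.8% of its UMIs. Cd74 was higher in both R241E libraries than in all 3 WT libraries in each class. In microglia the level was 54.9 and 70.6 CPM in R241E and 5.26, 4.84 and 37.4 CPM in WT, and in macrophages it was 568 and 341 CPM in R241E and 338, 250 and 328 CPM in WT. The term was -1.15 with limma-voom (adjusted p = 0.272) and had an SE of 1.08 with the robust prior (edgeR adjusted p = 0.956). Over the fits that leave out 1 library it ran from -2.79 to -0.96, with a negative sign in all 5, and the call was lost without R241E replicate 2, WT replicate 1 or WT replicate 2 (edgeR adjusted p = 0.212, 0.159 and 0.527). It was also lost without the library block (edgeR adjusted p = 0.576).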

How the results depend on the processing

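Of the 7 genes, 3 were called in microglia, 5 with the class II genes in clustering or with the top nucleus of each library left out (also with the robust prior), and 0 to 6 over the fits without 1 library. The titles name no pairing beyond the replicate numbers, and the correlation of same-numbered deviations was 0.097 and -0.019 over 2 pairs. With 2 R241E libraries their deviations mirror each other, so these values cannot decide whether same-numbered mice belong together. With the numbers as a replicate block 6 were called. Only WT has a replicate 3, so the block fits that library exactly and removes it from the genotype difference. The same 6 genes were called without WT replicate 3, so the block is not a separate check. In macrophages 0 were called, 1 with the top nucleus left out, with the robust prior or with both, and 0 to 3 without 1 library. For the difference between the classes 1 was called, 0 with limma-voom, without the library block or with the robust prior, 2 with the upper limits lifted, and 0 to 1 without 1 library.

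Some signs turned. The class difference became -1.0, -0.73 and -0.85 for H2-Aa and -1.24, -1.03 and -0.33 for H2-Eb1 with class II genes in clustering, the top nucleus left out (also with the robust prior) and the upper limits lifted. Without 1 library it ran from -1.79 to 1.42 for Ciita, -0.70 to 0.48 for H2-Aa, -1.91 to 0.86 for H2-Eb1, -1.73 to 0.04 for H2-DMa and -1.97 to 0.16 for H2-DMb1. In macrophages Cd74 was -0.05 with the upper limits lifted, where the dendritic nuclei fell into that class, and Ciita ran from -1.37 to 1.10 and H2-DMb1 from -1.32 to 0.54 without 1 library. Microglial Ciita was -0.01 with no filter, -0.05 with the limits lifted and -0.25 to 0.38 without 1 library, and fibroblast Cd74 was 0.33 with the top nucleus left out. The difference in the share of nuclei with Ciita was -1.02 points in macrophages at 500 UMIs and 0.127 points in microglia without thinning. Without 1 library, shares in macrophages ran from -1.45 to 4.17 points for Ciita, -3.44 to 4.42 for H2-Aa, -0.419 to 12.9 for H2-Ab1, -2.11 to 2.57 for H2-DMa and -1.05 to 12 for H2-Eb1, and in microglia from -0.165 to 0.14 for Ciita. The causes were not tested.

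Over all genes, 1164 were called in microglia, 2115 with the block, 608 in nuclei with at most 1 interferon UMI and 511 to 1550 without 1 library. In macrophages it was 26, with 50 without a filter, 3 by DESeq2, 45 with the block, 13 without the top Scrublet scores and 3 to 42 without 1 library. For the class difference it was 99, 62 without the library block and 44 to 94 without 1 library, and in fibroblasts 4, with 0 to 103 over the alternatives. Depth limits Ciita in microglia (38 UMIs) and H2-DMa in macrophages (44 UMIs).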

Other observations

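The pattern of the 7 genes over cell classes was compared with that of 16051 other genes, as Pearson's r between the log2(CPM + 1) of a gene and the mean over the 7, over 35 sums of 7 classes and 5 libraries. The classes were microglia, border-associated macrophages, astrocytes, fibroblasts, mural cells, neurons and oligodendrocytes, so dendritic cells, B cells and monocytes, with their high levels, were not among them. The sums share libraries and nuclei, so no p is given. The 5 genes most like it were Snx6 (r = 0.89), Ms4a7 (0.87), Gm8369 (0.87), Adam33 (0.87) and Pitpna (0.86). Ms4a7, a marker of border-associated macrophages and itself in the list that named them, was at 734 to 1070 CPM in that class. Among the 7 genes themselves, r with their mean was highest for H2-Aa (0.96) and lowest for H2-DMa (0.69).

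Within microglia at 1000 UMIs a nucleus, H2-Aa, H2-Ab1 or H2-Eb1 was seen in 12.2% and 31.6% of R241E nuclei with a Cd74 UMI (41 and 19 nuclei) and in 2.09% and 1.46% of those without. In WT it was 0 of 5, 0 of 12 and 1 of 16 nuclei with a Cd74 UMI, and 0.557%, 0.348% and 0.946% of those without. H2-DMa was seen in 2.44% and 10.5% of R241E nuclei with a Cd74 UMI and in 4.7% and 4.59% of those without. In macrophages the classical chains were seen in 62.5% and 50% of R241E and in 71.4%, 55.6% and 64.3% of WT nuclei with a Cd74 UMI, and in 16% and 2.44% of R241E and 9.09%, 3.33% and 3.85% of WT nuclei without one.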
